A study of Homo sapiens with 15 samples.

Results

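The 10 genes described here are the core apoptosis regulators of the BCL2 family: the antiapoptotic genes BCL2, BCL2L1 and MCL1, the BH3-only genes BCL2L11, BMF, PMAIP1, BBC3 and BID, and the pore-forming genes BAX and BAK1. They were taken by name, as the rows of the deposited expression table whose Ensembl identifiers carry these symbols. All 10 had a row among the 47459 gene rows, and all 10 were among the 16104 genes that were tested.

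RNA was measured in MM.1S cells, an established human multiple myeloma line, after 6 h of treatment. The treated groups received dCBP-1, A-485 together with GNE-781, GNE-781 alone, or A-485 alone, each compound at 100 nM, and the control group received DMSO. Each of the 5 groups had 3 libraries, 15 in all, made from the 3′ ends of polyadenylated RNA. Values are the authors' normalized read counts, which are reads divided by 1 factor per library. As background, CBP and p300 are paired histone acetyltransferases and transcriptional coactivators found at active enhancers. A-485 blocks their catalytic site, GNE-781 occupies their bromodomain, and dCBP-1 binds CBP and p300 and recruits the cereblon ubiquitin ligase to them for degradation. No group received a compound that engages cereblon without binding CBP and p300, so effects of cereblon recruitment itself cannot be told apart from those of CBP and p300 loss. All libraries come from 1 cell line, and protein was not measured.

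BCL2 family proteins decide at the outer mitochondrial membrane whether a cell releases cytochrome c and dies. The antiapoptotic members hold the pore-forming members BAX and BAK1 and the BH3-only proteins in check, and the BH3-only proteins either neutralise the antiapoptotic members or activate BAX and BAK1 directly. Plasma cells and many myelomas depend on MCL1, and some depend on BCL2 or BCL2L1.

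The libraries held 13103114 to 18291529 reads on genes, and a member had 78 to 5729 reads in a library. The share of reads on mitochondrially encoded genes lay between 14.3% and 17.0% in the 12 treated libraries, and was 23.1%, 19.7% and 16.4% in the DMSO libraries 1, 2 and 3. The first 2 of these DMSO libraries stand apart. They also had the fewest genes with a read, 16557 and 17585, beside 19128 to 21140 in the other libraries. The part of these differences in the results was not tested, and every comparison with DMSO was also made without these libraries. Those fits leave 1 DMSO library, replicate 3, which is assumed to vary like the libraries of the other groups, so a call gained or lost there bears on that single library. All 8 plasma cell marker genes were detected in every library. Their summed value was 6330 to 7540 with dCBP-1, 19104 to 23316 with the combination, 23612 to 26501 with GNE-781, 35886 to 44173 with A-485 and 52629 to 58245 with DMSO. Of 16 marker genes of mature B cells, T cells, myeloid cells, stroma and epithelium, CD3D, CSF1R and KRT19 were at 0 in every library. CIITA, the regulator of MHC class II genes, ran from 5.93 to 280 and the other markers reached at most 26.7. No label says whether replicates came from different cultures, and the p-values speak of spread among libraries, which may be technical. In RNA from whole cultures, fewer cells of a kind and less RNA per cell cannot be told apart.

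The promoters of the antiapoptotic genes BCL2 and BCL2L1, of BMF and of BAX are shown as examples. The first 3 genes fell with dCBP-1, the combination and GNE-781, as did BCL2L11, which is not shown. BAX, like some other members, passed no threshold with the combination. The windows printed for BMF and BAX hold motif matches. Each window runs from 250 bases before to 50 bases after the annotated start and was taken from RefSeq (GRCh38.p14). BCL2L1 and BMF have 2 windows each, of which only those listed below are printed. Capitals mark the motif matches that were found, the E-box CACGTG in BAX and the composite ETS-IRF motif, GGAA and GAAA with any 2 bases between them, in BMF, where it lies on the opposite strand. The windows are chr18:63319720-63320019 (minus strand) for BCL2, chr20:31722819-31723118 (minus strand) for BCL2L1, chr15:40106917-40107216 (minus strand) for BMF and chr19:48954625-48954924 (plus strand) for BAX.
BCL2: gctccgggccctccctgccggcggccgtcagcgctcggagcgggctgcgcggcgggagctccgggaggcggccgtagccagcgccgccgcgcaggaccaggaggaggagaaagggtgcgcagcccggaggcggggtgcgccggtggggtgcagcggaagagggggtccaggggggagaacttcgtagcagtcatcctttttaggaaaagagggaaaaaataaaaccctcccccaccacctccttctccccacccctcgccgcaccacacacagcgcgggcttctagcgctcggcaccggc
BCL2L1: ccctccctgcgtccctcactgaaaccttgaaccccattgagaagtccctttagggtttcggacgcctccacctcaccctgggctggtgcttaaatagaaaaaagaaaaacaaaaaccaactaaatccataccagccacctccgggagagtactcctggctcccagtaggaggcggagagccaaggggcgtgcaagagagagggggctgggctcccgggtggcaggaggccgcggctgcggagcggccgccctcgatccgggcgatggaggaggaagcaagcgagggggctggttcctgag
BMF: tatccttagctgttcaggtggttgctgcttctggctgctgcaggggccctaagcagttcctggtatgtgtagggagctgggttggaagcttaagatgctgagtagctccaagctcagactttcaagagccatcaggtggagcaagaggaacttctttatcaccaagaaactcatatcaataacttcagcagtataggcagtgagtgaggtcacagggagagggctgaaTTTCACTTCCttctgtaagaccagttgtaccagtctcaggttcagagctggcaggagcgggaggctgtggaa
BAX: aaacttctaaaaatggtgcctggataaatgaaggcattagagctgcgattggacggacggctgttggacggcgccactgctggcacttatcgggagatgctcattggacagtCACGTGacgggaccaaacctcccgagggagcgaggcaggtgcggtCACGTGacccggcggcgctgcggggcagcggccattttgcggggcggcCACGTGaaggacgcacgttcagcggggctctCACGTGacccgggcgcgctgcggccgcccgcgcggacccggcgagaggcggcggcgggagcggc

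RefSeq windows were matched for 9 of the 10 members, 15 windows in all, and both strands were searched for 4 motifs. The E-box CACGTG, the palindrome recognised by MYC and related factors, was found in windows of BAX, BBC3 and BID. BAX held 4 matches, at positions -138, -93, -45 and -14 from the start, BBC3 held 1, and BID held 1 that lies in 2 overlapping windows of its 5. Counted by window, 4 of the 15 member windows held an E-box, including the 2 overlapping BID windows with the same match. Of all 35116 RefSeq promoter windows of 300 bases, 7.26% held an E-box. The ETS-IRF motif, a composite element known from B cell and plasma cell enhancers, was found in 1 member window and in 2.82% of all windows. That window is the BMF window printed above, and the other BMF window held no match. The cyclic AMP response element TGACGTCA, the site of CREB, which recruits CBP, was in 0 of the member windows and in 1.85% of all. The NF-kB motif, GGGA and TTCC with any 2 bases between them, was in 0 of the member windows and in 1.61% of all. The windows shown for BCL2 and BCL2L1 held none of the 4 motifs. A match is a description of sequence only, and its absence says nothing about the factor.

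**Figure D1:**
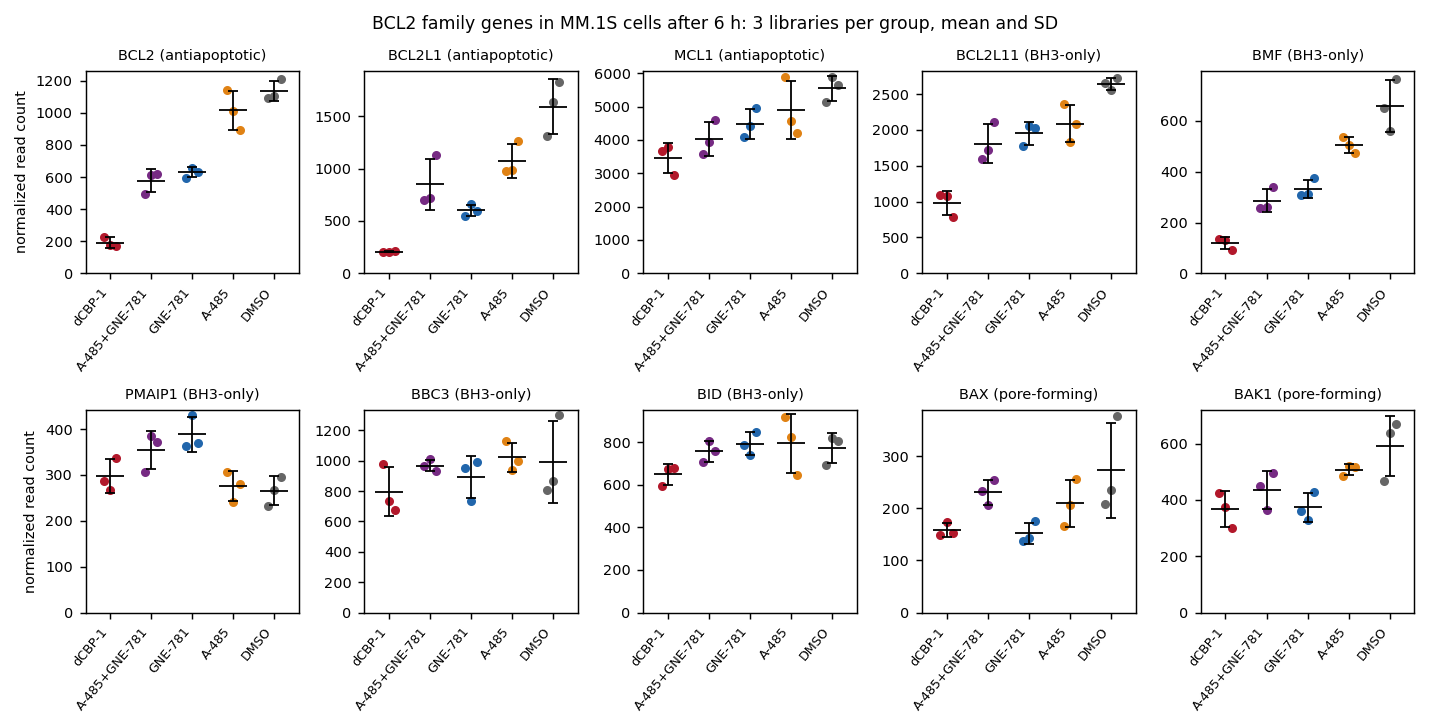
Normalized read counts of the 10 members in each library (points), with the mean and SD of the 3 libraries per group (lines); every axis starts at 0 and has its own scale. BCL2, BCL2L1, BCL2L11 and BMF have their lowest libraries with dCBP-1, clear of every other group, while in PMAIP1, BBC3 and BID neighbouring groups overlap, except dCBP-1 and the combination in BID.

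BCL2 (ENSG00000171791), the antiapoptotic gene that gave the family its name, had its lowest values with dCBP-1. Its normalized read counts were 229, 174 and 169.6 with dCBP-1, 493, 613 and 620.3 with the combination, 597, 658 and 633 with GNE-781, 1141, 1009.8 and 894 with A-485, and 1091, 1106 and 1210.2 with DMSO. The dCBP-1 libraries lay below all others, the combination and GNE-781 libraries overlapped each other in the middle, and the A-485 libraries overlapped those of DMSO. BCL2 fell with dCBP-1 to 191 ± 33.0 normalized read counts, against 1136 ± 64.9 with DMSO (SD, n = 3 libraries each). On the log2 scale this is -2.58 ± 0.15 (SE; limma adjusted p = 1.28e-14), or 5.97-fold lower. It fell by less with the combination (-0.99 ± 0.15, limma adjusted p = 2.15e-05) and with GNE-781 (-0.85 ± 0.15, limma adjusted p = 0.000194). With A-485 the log2 difference from DMSO was -0.17 (95% interval -0.47 to 0.13).

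BCL2L1 (ENSG00000171552), which encodes BCL-XL, showed the largest fold difference of the 10 genes between dCBP-1 and DMSO. The libraries gave 199, 208 and 215 normalized read counts with dCBP-1, 697, 719.8 and 1127 with the combination, 545, 658 and 597 with GNE-781, 972, 981 and 1261 with A-485, and 1308, 1636 and 1826 with DMSO. Neighbouring groups in the order of their means did not overlap, except A-485 and the combination, and here the GNE-781 libraries lay below those of the combination. With dCBP-1 the mean fell to 207 ± 7.67, against 1589.7 ± 262 with DMSO (SD, n = 3 each), which on the log2 scale is -2.92 ± 0.17 (SE; limma adjusted p = 1.04e-14) or 7.57-fold lower. The gene fell also with the combination (-0.93 ± 0.17, limma adjusted p = 0.000189) and with GNE-781 (-1.39 ± 0.17, limma adjusted p = 1.19e-06). With A-485 every library was below every DMSO library, and the log2 difference was -0.57 ± 0.17 (95% interval -0.91 to -0.23, limma adjusted p = 0.0685), which did not pass the threshold of 0.05. It passed with DESeq2 on the recovered reads (-0.57, adjusted p = 0.0419) and with limma without DMSO replicate 1 (-0.70, adjusted p = 0.0472).

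MCL1 (ENSG00000143384), the short-lived antiapoptotic protein on which plasma cells rely, differed far less. Its normalized read counts were 3664, 3787 and 2955 with dCBP-1, 3585, 3942 and 4585 with the combination, 4084, 4411 and 4973 with GNE-781, 5887, 4573 and 4222 with A-485, and 5129.8, 5880.4 and 5633 with DMSO. Each group overlapped its neighbours in the order of the means, and only groups further apart in that order were separate. MCL1 fell with dCBP-1 to 3469 ± 449, against 5548 ± 383 with DMSO (SD, n = 3 each), on the log2 scale -0.68 ± 0.14 (SE; limma adjusted p = 0.000277) or 1.61-fold lower. It fell with the combination by 0.46 on the log2 scale (SE 0.14, limma adjusted p = 0.0184), a call lost with limma when DMSO replicate 2 (adjusted p = 0.0812), combination replicate 1 (0.0865) or combination replicate 2 (0.0666) was left out. The difference from DMSO was -0.31 with GNE-781 (limma adjusted p = 0.135, and 0.0472 with TMM or 0.0304 with median-ratio scaling) and -0.19 with A-485 (limma adjusted p = 0.543).

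BCL2L11 (ENSG00000153094) encodes BIM, a BH3-only protein that binds all antiapoptotic members and activates BAX and BAK1. Its libraries had 1089, 1072 and 783 normalized read counts with dCBP-1, 1595, 1720.3 and 2112 with the combination, 1769.7, 2058 and 2024 with GNE-781, 2355, 1835 and 2075 with A-485, and 2647, 2559 and 2727 with DMSO. The dCBP-1 libraries lay below all others and the DMSO libraries above all others, with the 3 inhibitor groups overlapping between them. BCL2L11 fell with dCBP-1 to 981 ± 172, against 2645 ± 84.0 with DMSO (SD, n = 3 each), on the log2 scale -1.45 ± 0.14 (SE; limma adjusted p = 1.69e-09) or 2.72-fold lower. It fell with the combination (-0.56 ± 0.14, limma adjusted p = 0.00532). With GNE-781 the call (-0.44 ± 0.14, limma adjusted p = 0.0302) rested on single libraries: it was lost when DMSO replicate 1 or 2 or any 1 of the GNE-781 libraries was left out, at adjusted p values of 0.0563 to 0.149, and with the replicate number as a block (limma adjusted p = 0.0502). The 3′ end of BCL2L11 lies inside MIR4435-2HG, a long noncoding gene on the opposite strand. The strand used in counting is not given in the sources used here, so their reads cannot be told apart. MIR4435-2HG fell with dCBP-1 to 2855, 2750.3 and 2620.4 normalized read counts, against 3984, 4015 and 6779 with DMSO (log2 fold change -0.80 ± 0.15, limma adjusted p = 9.44e-05). It was not called with the inhibitors. Its log2 difference from DMSO was -0.03 with the combination (limma adjusted p = 0.919), -0.25 with GNE-781 (limma adjusted p = 0.267) and 0.12 with A-485 (limma adjusted p = 0.764).

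BMF (ENSG00000104081) is the BH3-only protein known for binding dynein light chain at the cytoskeleton. Its normalized read counts were 136, 129 and 92.5 with dCBP-1, 258, 263 and 339 with the combination, 308, 314 and 374 with GNE-781, 537, 507 and 475 with A-485, and 652, 559 and 765 with DMSO. In the order of the means the groups did not overlap, except the combination and GNE-781. BMF fell with dCBP-1 to 119 ± 23.4, against 658 ± 103 with DMSO (SD, n = 3 each), on the log2 scale -2.46 ± 0.17 (SE; limma adjusted p = 1.62e-12) or 5.52-fold lower. It fell with the combination (-1.20 ± 0.17, limma adjusted p = 1.44e-05) and with GNE-781 (-0.98 ± 0.17, limma adjusted p = 0.000254). With A-485 the log2 difference was -0.37 (95% interval -0.72 to -0.01, limma adjusted p = 0.301). The 2 BH3-only members that fell with dCBP-1, BCL2L11 and BMF, are proapoptotic. They fell alongside the antiapoptotic genes BCL2, BCL2L1 and MCL1 and the pore-forming genes BAX and BAK1.

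PMAIP1 (ENSG00000141682) encodes NOXA, a BH3-only protein that binds MCL1 and promotes its degradation, and it was the 1 member that rose in any comparison. The gene had 287, 267 and 338 normalized read counts with dCBP-1, 307, 385 and 371 with the combination, 364, 432 and 370.1 with GNE-781, 307, 241 and 281 with A-485, and 233, 268 and 296 with DMSO. The combination and GNE-781 libraries lay above all DMSO libraries, and neighbouring groups in the order of the means overlapped. PMAIP1 rose with GNE-781 to 389 ± 37.6, against 266 ± 31.9 with DMSO (SD, n = 3 each), on the log2 scale 0.55 ± 0.16 (SE; limma adjusted p = 0.0208) or 1.46-fold higher. The limma call was lost on leaving out the first DMSO library (0.46, adjusted p = 0.0898), the second one (0.56, 0.0522) or the second GNE-781 library (0.47, 0.11). The log2 difference from DMSO was 0.42 with the combination (95% interval 0.08 to 0.75, limma adjusted p = 0.0705) and 0.16 with dCBP-1 (-0.17 to 0.50, limma adjusted p = 0.468). The combination's value passed the threshold with TMM scaling (0.39, adjusted p = 0.0348) and median-ratio scaling (0.37, adjusted p = 0.0464), and without DMSO replicate 3 (0.50, adjusted p = 0.0356) or combination replicate 1 (0.51, adjusted p = 0.0455).

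BBC3 (ENSG00000105327), which encodes the p53 target PUMA, passed the threshold in no comparison with all libraries. Its normalized read counts were 979.7, 732 and 678 with dCBP-1, 963, 1008 and 934 with the combination, 950.2, 734 and 993 with GNE-781, 1128, 941 and 996 with A-485, and 809, 867 and 1301 with DMSO. All groups overlapped their neighbours, and DMSO had the widest spread, set by replicate 3. The log2 difference of dCBP-1 from DMSO was -0.30 (95% interval -0.64 to 0.03, limma adjusted p = 0.154), and it was called without dCBP-1 replicate 1 (-0.46, limma adjusted p = 0.0459). BID (ENSG00000015475), which caspase-8 cleaves to link death receptors to mitochondria, passed it in no comparison either. It had 593, 674 and 677 normalized read counts with dCBP-1, 705, 804 and 759 with the combination, 786, 740.0 and 849 with GNE-781, 917, 824 and 644 with A-485, and 691, 819 and 807 with DMSO. The dCBP-1 libraries lay just below those of the combination, GNE-781 and DMSO but overlapped those of A-485. The log2 difference of dCBP-1 from DMSO was -0.25 (95% interval -0.54 to 0.04, limma adjusted p = 0.169).

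The pore-forming genes had lower values with dCBP-1 and with GNE-781. BAX (ENSG00000087088), whose product moves from the cytosol to mitochondria, had 148, 174 and 153 normalized read counts with dCBP-1, 233, 206 and 253 with the combination, 137, 143 and 175 with GNE-781, 166, 206 and 256 with A-485, and 208, 234 and 376 with DMSO. The dCBP-1 and GNE-781 libraries overlapped each other and lay below all combination and DMSO libraries, and DMSO replicate 3 lay above all 14 others. BAX fell with dCBP-1 to 158 ± 14.05, against 273 ± 90.7 with DMSO (SD, n = 3 each; log2 fold change -0.73 ± 0.21, limma adjusted p = 0.00601). It fell likewise with GNE-781, to 152 ± 20.6 (-0.80 ± 0.21, limma adjusted p = 0.00819). Both calls rested on DMSO replicate 3: without it the log2 differences were -0.48 with dCBP-1 (limma adjusted p = 0.065) and -0.54 with GNE-781 (limma adjusted p = 0.0552).

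BAK1 (ENSG00000030110), whose product resides in the mitochondrial outer membrane, had 426, 375 and 299.98 normalized read counts with dCBP-1, 449, 363 and 496 with the combination, 361, 329.5 and 429 with GNE-781, 485.1, 521 and 517 with A-485, and 469, 638 and 669 with DMSO. Neighbouring groups overlapped throughout, while the dCBP-1 and GNE-781 libraries lay below all DMSO libraries. BAK1 fell with dCBP-1 to 367 ± 63.2, against 592 ± 108 with DMSO (SD, n = 3 each; log2 fold change -0.69 ± 0.17, limma adjusted p = 0.00169). With GNE-781 it fell by 0.66 on the log2 scale (SE 0.17, limma adjusted p = 0.00726), a call lost without GNE-781 replicate 2 (-0.57, limma adjusted p = 0.0536). With the combination the log2 difference was -0.43 (95% interval -0.78 to -0.09, limma adjusted p = 0.0642), called with TMM (adjusted p = 0.0378) and median-ratio scaling (0.0295) and without DMSO replicate 1 (0.0207) or combination replicate 3 (0.0435).

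Across the 10 members, 7 fell and 0 rose with dCBP-1 against DMSO. Of all 16104 genes tested, 37.8% were called in this comparison, 18.5% as lower and 19.3% as higher. The members' median log2 fold change was -0.71, beside 0.07 over all genes tested. In 8 of 10 members every dCBP-1 library was below every DMSO library, and in 0 every one was above, which held for 22.5% and 21.8% of all genes. Without DMSO replicates 1 and 2, the values of the strongest genes stood close to those with all libraries, with BCL2 at -2.67, BCL2L1 at -3.13 and BMF at -2.69. BBC3 stood at -0.73 and BAX at -1.25 against DMSO replicate 3 alone, which is the highest DMSO library for both genes.

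**Figure D2:**
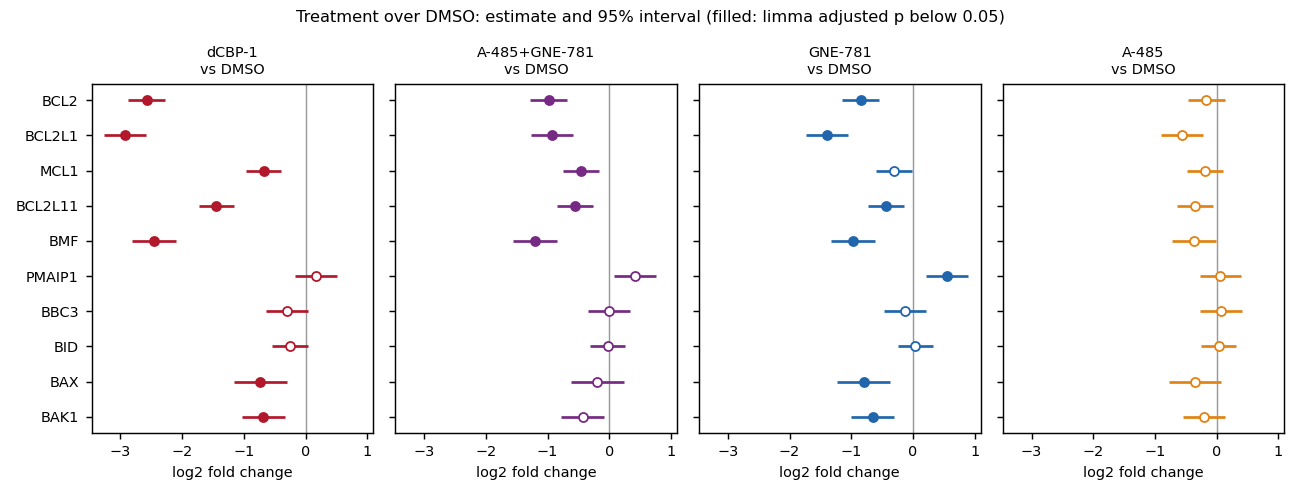
Log2 fold change of each member over DMSO for the 4 treatments, as the estimate (point) and its 95% interval (line); filled points have a limma adjusted p below 0.05. The comparisons share the 3 DMSO libraries. BCL2, BCL2L1 and BMF lie beyond -2 with dCBP-1 and nearer to 0 with the inhibitors.

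With the combination against DMSO, 5 members fell and 0 rose, while 21.0% of all genes were called, 9.60% as lower and 11.4% as higher. The members that fell were BCL2, BCL2L1, MCL1, BCL2L11 and BMF, and the members' median log2 fold change was -0.45, beside 0.09 over all genes. Every combination library was below every DMSO library in 5 members and above in 1, PMAIP1, and in 14.8% and 15.6% of all genes. Against DMSO replicate 3 alone MCL1 (-0.49) and BCL2L11 (-0.60) missed the threshold with log2 differences about as large as with all libraries. With GNE-781 against DMSO, 6 members fell and 1 rose, while 16.6% of all genes were called, 8.81% as lower and 7.82% as higher. The members that fell were BCL2, BCL2L1, BCL2L11, BMF, BAX and BAK1, and the median was -0.55, beside 0.07 over all genes. Every GNE-781 library was below every DMSO library in 7 members, MCL1 among them, and above in 1, and in 16.4% and 15.2% of all genes. Against DMSO replicate 3 alone BCL2L11 (-0.49, limma adjusted p = 0.17) and PMAIP1 (0.39, limma adjusted p = 0.351) missed the threshold, the BCL2L11 difference being no smaller than with all libraries. With A-485 against DMSO, limma called 0 members, edgeR 0 and DESeq2 1, while limma called 2.14% of all genes, 1.79% as lower and 0.348% as higher. At an unadjusted p below 0.05, limma gave 3 members (BCL2L1, BCL2L11 and BMF, all with lower values) and 15.7% of all genes. The median over the members with A-485 was -0.20, beside -0.03 over all genes. Every A-485 library was below every DMSO library in those same 3 members and above in 0, and in 11.5% and 3.60% of all genes. These 4 comparisons share the DMSO libraries, so their values are not independent of each other.

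The degrader was then set against the inhibitors at the same concentration and time, which asks whether dCBP-1 lowers these genes beyond what the inhibitors do at that concentration. How fully each inhibitor blocked its domain is not shown by these data, so the comparison is not with a known complete block of both domains. Against the combination, 4 members fell with dCBP-1 and 0 rose, while 6.17% of all genes were called, 5.61% as lower and 0.553% as higher. The largest difference was in BCL2L1, with 207 ± 7.67 normalized read counts with dCBP-1 and 848 ± 242 with the combination (SD, n = 3 each; log2 fold change -1.99 ± 0.17, limma adjusted p = 2.48e-10). BCL2 had 191 ± 33.0 with dCBP-1 and 576 ± 71.6 with the combination (-1.59 ± 0.15, limma adjusted p = 2.34e-09). BMF was 2.40-fold lower with dCBP-1 (-1.27 ± 0.17, limma adjusted p = 4.08e-06), and BCL2L11 was 1.85-fold lower (-0.89 ± 0.14, limma adjusted p = 4.24e-05). In these 4 genes the dCBP-1 libraries lay below every other library of the series. Every dCBP-1 library was below every combination library in 6 members, with BID and BAX added, and above in 0, and in 14.3% and 8.88% of all genes. MIR4435-2HG, whose reads cannot be told apart from those of BCL2L11, was also lower with dCBP-1 than with the combination (-0.77 ± 0.15, limma adjusted p = 0.00071). MCL1 did not pass the threshold, with a log2 difference of -0.22 (95% interval -0.51 to 0.07), and neither did BAX, at -0.54 (-0.96 to -0.11, limma adjusted p = 0.152). A p that misses the threshold does not show that the compounds act alike on these genes.

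Against GNE-781 alone, dCBP-1 lowered the same 4 members and raised 0, while 9.31% of all genes were called, 7.13% as lower and 2.19% as higher. The log2 fold changes were -1.73 ± 0.15 for BCL2 (limma adjusted p = 3.68e-10), -1.53 ± 0.17 for BCL2L1 (4.57e-08), -1.48 ± 0.17 for BMF (1.79e-07) and -1.004 ± 0.14 for BCL2L11 (4.82e-06). MIR4435-2HG, whose reads cannot be told apart from those of BCL2L11, was at -0.55 ± 0.15 (limma adjusted p = 0.0162). The pore-forming genes had differences near 0, at 0.07 for BAX (95% interval -0.36 to 0.49) and -0.03 for BAK1 (-0.38 to 0.31). MCL1 was at -0.38 (95% interval -0.66 to -0.09, limma adjusted p = 0.0974) and passed with TMM scaling (adjusted p = 0.0309) and with median-ratio scaling (adjusted p = 0.0257). Every dCBP-1 library was below every GNE-781 library in 7 members, with MCL1, PMAIP1 and BID added, and above in 0, and in 16.9% and 15.1% of all genes. PMAIP1 was at -0.39 (95% interval -0.72 to -0.05, limma adjusted p = 0.155).

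**Figure D3:**
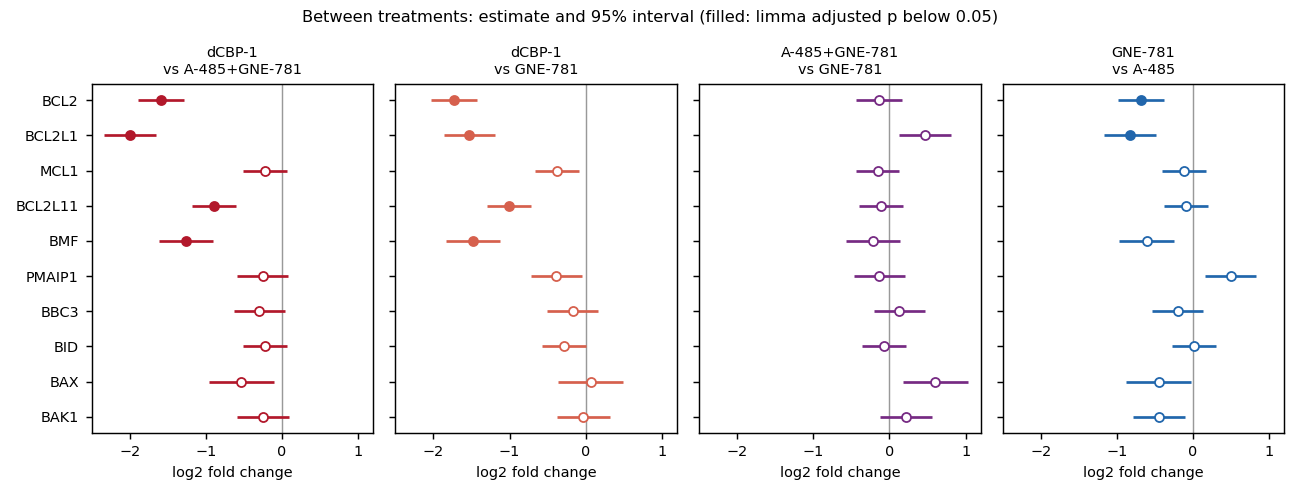
Log2 fold change of each member between treatments, as the estimate (point) and its 95% interval (line); filled points have a limma adjusted p below 0.05, and the first-named treatment is over the other. dCBP-1 differs from the combination and from GNE-781 in BCL2, BCL2L1, BCL2L11 and BMF, and no member is filled for the combination against GNE-781.

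Adding A-485 to GNE-781 gave no called difference in any member. In this comparison limma called 0 of all 16104 genes, or 0%, as did edgeR and DESeq2, and 494 genes (3.07%) had an unadjusted limma p below 0.05. Of the members, BCL2L1 had 848 ± 242 normalized read counts with the combination and 600.1 ± 56.5 with GNE-781 (SD, n = 3 each), a log2 difference of 0.47 (95% interval 0.13 to 0.81, limma adjusted p = 1). Combination replicate 3 set much of it, since without that library the difference was 0.24. BAX had 231 ± 23.7 with the combination and 152 ± 20.6 with GNE-781, a log2 difference of 0.60 (95% interval 0.18 to 1.03, limma adjusted p = 1). Every combination library was above every GNE-781 library in these 2 members and below in 0, and in 6.98% and 3.38% of all genes. BCL2 differed by -0.14 (95% interval -0.44 to 0.17) and BMF by -0.22 (-0.57 to 0.14).

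The bromodomain and the catalytic inhibitor were compared directly, where 1.0% of all genes were called, 0.727% as lower and 0.273% as higher with GNE-781. Both members that passed are antiapoptotic. BCL2L1 fell to 600.1 ± 56.5 normalized read counts with GNE-781, against 1072 ± 164 with A-485 (SD, n = 3 each; log2 fold change -0.83 ± 0.17, limma adjusted p = 0.00695). BCL2 fell to 629 ± 30.8 with GNE-781, against 1015 ± 123 with A-485 (-0.68 ± 0.15, limma adjusted p = 0.0147). The BCL2 call was lost with 1 library fewer in 5 of 6 cases (limma adjusted p 0.0537 to 0.114) and that of BCL2L1 in 2 of 6 (0.0758 and 0.0769), with the sign kept. Every GNE-781 library was below every A-485 library in 4 members, with BMF and BAK1 added, and above in 1, PMAIP1, and in 7.30% and 12.6% of all genes. BMF, at -0.61 (95% interval -0.97 to -0.26, limma adjusted p = 0.091), was called with TMM scaling (adjusted p = 0.0121), median-ratio scaling (0.0101), DESeq2 (0.0199) and a limma fit to only these groups (0.0149).

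Across all 15 libraries, BMF, BCL2L11 and BCL2L1 had the patterns closest to that of BCL2 among the members. As a description over libraries that share treatments and depth, Pearson's r of the log2 values was 0.98 between BCL2 and BMF, 0.95 between BCL2 and BCL2L11 and 0.95 between BCL2 and BCL2L1. PMAIP1 had r of -0.54 to 0.22 with the other members. Among 7896 genes of at least median level, the patterns most like that of BCL2 were those of GPRIN3 (r = 0.997), the chemokine receptor gene CCR1 (0.995) and BIRC3 (0.994). For BCL2L1 they were FMNL1 (0.977), the glucocorticoid receptor gene NR3C1 (0.976) and BCL3 (0.9754), and for BMF they were SH3RF3 (0.993), DOCK4 (0.991) and WWC3 (0.989). BCL2L11 was closest to ARHGEF2 (0.989), FAT1 (0.988) and VEGFA (0.985), and MCL1 to MGAT2 (0.979), FOXK2 (0.970) and QPCT (0.970). The nearest patterns to the remaining members were less close, at r of 0.917 for PMAIP1 (FBXO11), 0.866 for BBC3 (PYGO2), 0.897 for BID (RBM26), 0.926 for BAX (FBL) and 0.939 for BAK1 (GPI).

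Other genes of the apoptosis pathway were set beside the BCL2 family with dCBP-1 against DMSO, where 37.8% of all genes were called, 19.3% as higher and 18.5% as lower. Of 16 apoptosome and caspase genes, 4 rose and 5 fell, with a median log2 fold change of -0.025. CASP8, the initiator at death receptors that cleaves BID, had 484, 558 and 439.9 normalized read counts with dCBP-1, against 1528, 1518 and 1658 with DMSO (log2 fold change -1.67 ± 0.20, limma adjusted p = 1.15e-07). The 2 groups were far apart with no overlap. CASP10, its relative, fell as well (-1.08 ± 0.14, limma adjusted p = 2.88e-07). CASP2 rose (0.999 ± 0.15, limma adjusted p = 3.03e-06) but by 0.54 without DMSO replicates 1 and 2 (limma adjusted p = 0.0145). APAF1, the scaffold of the apoptosome in the intrinsic pathway, had 350.1, 339 and 237 normalized read counts with dCBP-1, against 25.9, 101 and 113 with DMSO, and rose by 2.17 on the log2 scale (SE 0.33, limma adjusted p = 4.15e-06). Its lowest DMSO library is replicate 1, and without DMSO replicates 1 and 2 the rise was 1.42 (limma adjusted p = 0.000589). CASP9, the caspase that APAF1 activates, was picked out after its values were seen and rose by 1.07 (SE 0.25, limma adjusted p = 0.000974). With GNE-781 against DMSO, 3 genes of this list rose and 3 fell (16.6% of all genes called), with the combination 3 rose and 4 fell (21.0% of all genes), and with A-485 0 rose and 1 fell (2.14% of all genes).

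Of 5 tested inhibitor of apoptosis genes, 1 fell and 0 rose with dCBP-1, beside 18.5% and 19.3% of all genes. The gene was BIRC3, which encodes the ubiquitin ligase cIAP2. BIRC3 had 397, 330.4 and 337 normalized read counts with dCBP-1, 886, 1021 and 1104 with the combination, 991, 1155 and 1037 with GNE-781, 1884, 1611 and 1608 with A-485, and 2020.01, 1967 and 2497 with DMSO. The order of the group means is the same as for BCL2, with dCBP-1 lowest and the combination and GNE-781 overlapping. Every A-485 library was below every DMSO library for BIRC3, while for BCL2 the A-485 and DMSO libraries overlapped. The log2 fold change was -2.60 ± 0.14 against DMSO (limma adjusted p = 1.54e-15) and -1.50 ± 0.14 against the combination (limma adjusted p = 1.66e-09).

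Among 9 tested death receptor pathway genes, 2 rose and 2 fell with dCBP-1 against DMSO, a share near the 37.8% called over all genes. CFLAR, which encodes the caspase-8 inhibitor FLIP, had 1129.6, 1119 and 1128 normalized read counts with dCBP-1, against 2937, 2657 and 2805 with DMSO (log2 fold change -1.31 ± 0.12, limma adjusted p = 3.31e-10). TNFRSF10A, a receptor of the death ligand TRAIL, fell (-0.97 ± 0.19, limma adjusted p = 0.000128). Its DMSO replicates 1, 2 and 3 had 653, 564 and 1247 normalized read counts. Against DMSO replicate 3 alone, the highest DMSO library for this gene, it stood at -1.66. TNFSF10, the gene of TRAIL itself, rose (1.26 ± 0.21, limma adjusted p = 2.24e-05). TNFRSF10B, the other TRAIL receptor of the list, rose by 0.50 (limma adjusted p = 0.0345), a call lost in 8 of the alternatives run, with adjusted p values of 0.0515 to 0.145. Against the combination, CFLAR (-0.63) and TNFRSF10A (-1.001) fell with dCBP-1 and 0 genes of the list rose. In that comparison 5.61% of all genes were called as lower and 0.553% as higher.

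Of 8 tested further BCL2 family genes, 2 rose and 1 fell with dCBP-1, a share near the 37.8% called over all genes. BNIP3L, a mitophagy receptor, rose (0.94 ± 0.14, limma adjusted p = 5.22e-06). BAD, a BH3-only gene, had 949, 796 and 768 normalized read counts with dCBP-1, against 1545, 1689 and 992 with DMSO (-0.72 ± 0.16, limma adjusted p = 0.000766). DMSO replicates 1 and 2, the libraries with the larger mitochondrial share, had the highest BAD values, and against DMSO replicate 3 alone BAD stood at -0.25 (limma adjusted p = 0.379, 1 DMSO library). BCL2L12 rose by 0.33 (limma adjusted p = 0.0325), a call lost in 7 of the alternatives run, with adjusted p values of 0.0584 to 0.225. Of 5 tested genes for partners and turnover of BCL2 family proteins, 2 rose with dCBP-1 and 0 fell, again near the 37.8% called over all genes. These were the ubiquitin ligase genes BTRC (0.98 ± 0.16, limma adjusted p = 1.48e-05) and FBXW7 (0.48 ± 0.15, limma adjusted p = 0.0106), and FBXW7 encodes a ligase subunit for MCL1. The FBXW7 call was lost with limma without DMSO replicate 1 (adjusted p = 0.0506), DMSO replicate 2 (0.082) or dCBP-1 replicate 3 (0.103), and FBXW7 stood at 0.14 against DMSO replicate 3 alone (adjusted p = 0.638). The other genes tested in this list were HUWE1, USP9X and DYNLL1.

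**Figure D4:**
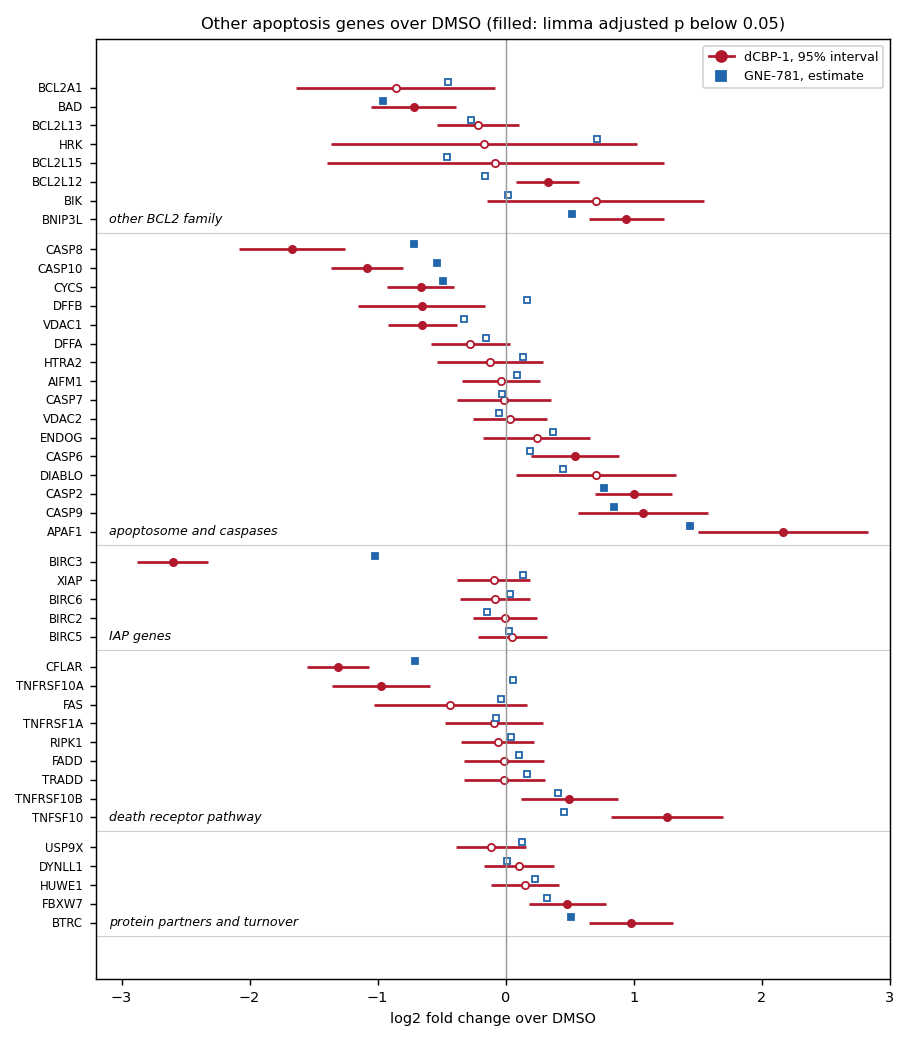
Log2 fold change over DMSO of the other apoptosis genes tested, grouped by list, with dCBP-1 as the estimate and 95% interval (circles and lines) and GNE-781 as the estimate alone (squares); filled symbols have a limma adjusted p below 0.05. BIRC3, CASP8 and CFLAR lie lowest with dCBP-1 and APAF1 lies highest.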

How the data were processed

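The authors deposited a gene-level signal per library, which they call normalized read counts, from Lexogen QuantSeq libraries of 3′ mRNA ends, per the labels' protocols. Reads refer to hg19, per the submitters' processing notes; the aligner, counting tool, strand setting and scaling are not given in the sources used here. In all libraries 100% of values were whole multiples of 1 step (tolerance 0.01 of a read), so reads were recovered. The treatment field of 2 combination libraries names other compound numbers than their titles, which were followed here.

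The 16104 genes that reached a value of 5 in 3 or more of the 15 libraries were tested as log2(value + 1), so folds of low genes are understated, with limma-trend (limma 3.58.1, R 4.3.3). One model held the 5 group means, two-sided, with Benjamini-Hochberg adjustment within each comparison, and adjusted p values below 0.05 were called. Errors of means are SD and of log2 fold changes SE. The count tests were edgeR 4.0.16 and DESeq2 1.42.0 on recovered reads, with the deposited scaling, which called 360 and 561 genes for A-485 against DMSO, where limma called 345. Other alternatives were TMM and median-ratio scaling, pseudocounts of 0.25 and 5, no filter and a filter at 20, only the groups compared, the replicate number as a block, and libraries left out. The fitting code was tested on simulated data. Replicate libraries differed by more than counting noise (chi-square per degree of freedom 5.61 to 46.5).

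Symbols matched 96.5% of identifiers. The members and gene lists were chosen with earlier results of these data known. Of each other list, up to 4 genes with the smallest p among those called for dCBP-1 against DMSO are named. A result for 1 listed gene is not reported here. Genes alike in pattern are the 3 with the highest r. ERCC spike-ins were added per the labels' protocols, but the table used here has 0 such rows, so RNA per cell is not measured. Promoter sequences are from RefSeq (GRCh38.p14), and no other coordinates are given because the builds differ.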

Additional observations from a re-analysis of the deposited data

How the results depend on the processing

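Of 80 member values (10 genes in 8 comparisons), 29 were called, and 20 of these kept their call under every alternative run. Over 483 alternatives of called values, 0 changed sign and 28 lost the call. Of the uncalled values, 21 alternatives were called, and 36 alternatives changed the sign of 14 uncalled values. In each case the cause was not tested. The number of members called with A-485 against DMSO was 1 with DESeq2 and 0 to 1 with single libraries left out, where limma with all libraries gave 0. For GNE-781 against DMSO it was 4 to 6 with single libraries left out (7 with all), and for GNE-781 against A-485 0 to 1 (2 with all). For the combination against DMSO it was 4 to 6 with single libraries left out (5 with all). With single libraries left out, dCBP-1 had 4 calls against the combination, 4 against GNE-781 and 6 to 8 against DMSO. The share of all genes called is not given for fits with libraries left out or with the replicate number as a block. A change in these counts can therefore not be set against a change over all genes. Sign changes among uncalled log2 values without DMSO replicates 1 and 2 were PMAIP1 at -0.11, BBC3 at -0.35 and BID at -0.037 (A-485), BID at -0.030 (GNE-781) and PMAIP1 at -0.0012 (dCBP-1), all against DMSO. For BID in GNE-781 against A-485 they were -0.071 with TMM, -0.071 with median-ratio scaling, -0.0042 with edgeR and -0.0037 with DESeq2. Leaving out single libraries gave ranges across 0 for A-485 against DMSO in PMAIP1 (-0.034 to 0.15), BBC3 (-0.060 to 0.28) and BID (-0.080 to 0.17). The ranges were -0.26 to 0.079 for BBC3 and -0.041 to 0.085 for BID in GNE-781 against DMSO. For the combination against DMSO they were -0.13 to 0.21 for BBC3, -0.11 to 0.020 for BID and -0.37 to 0.060 for BAX. Between treatments they were -0.0038 to 0.17 for BAX and -0.15 to 0.11 for BAK1 (dCBP-1 against GNE-781), -0.0055 to 0.21 for BBC3 (combination against GNE-781), and -0.21 to 0.026 for MCL1 and -0.14 to 0.12 for BID (GNE-781 against A-485). After group means were removed, same-numbered libraries of different groups correlated at -0.53 to 0.40, and differently numbered ones at -0.62 to 0.62. Of 15 libraries, 4 matched best with their own number. With 3 libraries per group this cannot decide whether a number marks a shared culture or day. With the replicate number as a block, 6 members were called for GNE-781 against DMSO, BCL2L11 being the one lost, and the other counts stood at 0, 5, 7, 4, 4, 0 and 2, as without it. With 3 libraries per group, small differences such as those of BBC3 and BID lie within intervals of about the size printed, and every member had 78 or more reads in every library.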
